A study of Mus musculus with 32 samples.

Results

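The 6 genes described here, Ly6a, Ly6c1, Ly6c2, Ly6d, Ly6g and Ly6i, belong to the Ly6 family of small surface antigens. They were taken by symbol from a table of 22329 genes, and all 6 were in it. The set was chosen by measured values, because Ly6a rose strongly from resistant culture to resistant tumor, so that contrast is given below as a description with no test. The libraries hold poly(A) RNA of MC38 cells, a mouse line labelled as colon adenocarcinoma. There were 13 untreated subcutaneous tumors of the parental line, 12 untreated subcutaneous tumors of the MC38-resistant line, 2 libraries of cultured parental cells and 5 of cultured resistant cells, both untreated. The series title and design text call the resistant line anti-PD-1 resistant, that is, resistant to an antibody against the T cell checkpoint receptor PD-1. Tumors grew in C57BL6/J mice. Whether the resistant line is 1 clone, and whether the cultured libraries came from separate cultures, is not given in the sources used here. The spread between the cultured libraries may therefore be technical, and p-values between the cultures of the lines measure only that spread.

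Ly6 proteins are short, disulfide-rich proteins of the three-finger fold, most of them held on the outer membrane by a glycolipid (GPI) anchor. In the mouse they are classical sorting markers: Ly6a is Sca-1, found on hematopoietic stem cells, activated lymphocytes and many endothelial cells, and Ly6c marks inflammatory monocytes, some T cells and endothelium. Ly6g marks neutrophils, Ly6d marks B cell precursors and squamous epithelium, and Ly6i is a close relative of Ly6a and Ly6c. Several of these genes, Ly6a above all, are known to be induced by interferons. In the RefSeq annotation of assembly GRCm38.p6 the genes Ly6e, Ly6i, Ly6a, Ly6c1, Ly6c2 and Ly6g lie in this order on chromosome 15, with Ly6a2 between Ly6c2 and Ly6g, and Ly6d lies beyond Ly6e.

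Values are in TPM (transcript abundance corrected for gene length and scaled to a fixed library total), so levels can be set side by side between genes within a library. The depth of the libraries is unknown. In every library the 12 housekeeping genes looked at were above 0. Markers of colon epithelium were nearly absent in all groups, with a median under 1 TPM for at least 7 of the 8 genes in each, so the label colon adenocarcinoma was not matched by epithelial markers. A tumor holds host cells besides the line. Ptprc, the pan-leukocyte antigen CD45, ranged from 14.5 to 53.7 TPM over the parental tumors, from 19.7 to 50.3 TPM over the resistant ones, and reached at most 0.147 TPM in culture. In bulk samples fewer cells of a type and less RNA per cell cannot be told apart.

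The members stood at unlike levels in tumors. Ly6a was the most abundant in all 25 tumors. Ly6c1 and Ly6c2 came next, and Ly6i was below both in every tumor. Ly6d and Ly6g were at or near 0. In parental tumors the summed level of the 6 members had a median of 658 TPM, of which Ly6a made up a median of 62.7%. In resistant tumors the summed level had a median of 380 TPM and Ly6a made up 61.6% of it. In culture the sum was 1.85 and 15.1 TPM in the parental libraries and had a median of 0.835 TPM in the resistant ones.

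**Figure D1:**
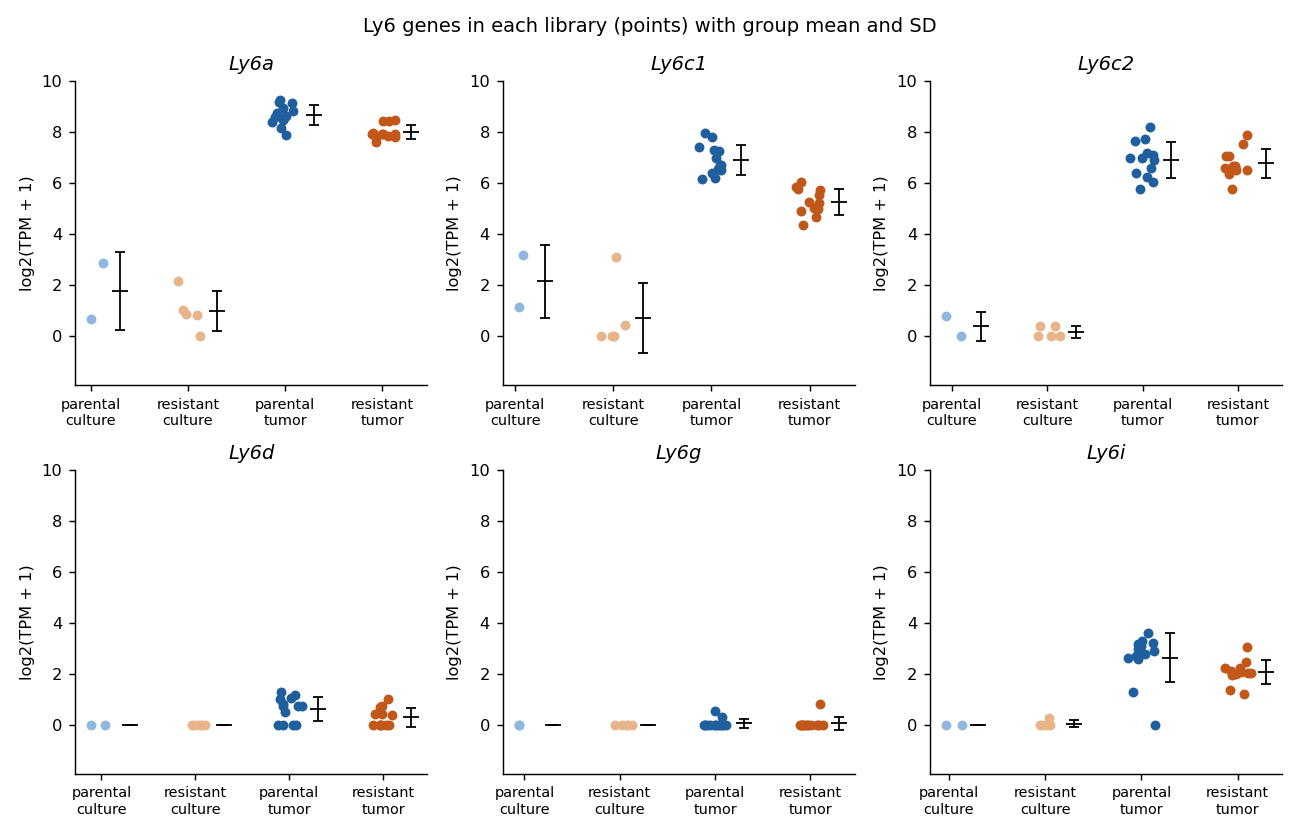
Level of each Ly6 gene as log2(TPM + 1), with 1 point per library in the 4 groups (2, 5, 13 and 12 libraries) and a bar for the group mean and SD. Ly6a, Ly6c1 and Ly6c2 lie higher in every tumor than in any culture, Ly6i is lower with 1 parental tumor at 0, and Ly6d and Ly6g stay near 0 throughout.

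Ly6a, the Sca-1 antigen, was scarce in cultured MC38 cells and abundant in tumors of the parental line. Cultured parental cells had 0.618 and 6.28 TPM. The parental tumors had a lowest value of 233, a median of 392 and a highest value of 607 TPM. The groups did not overlap, and the log2 fold change of TPM + 1 was 6.89 ± 0.39 (SE, adjusted p = 3.27e-10, limma with Benjamini-Hochberg adjustment over 14348 genes). Both cultures were well below the lowest tumor, but they differed from each other. Without parental culture replicate 2, the higher of the pair, the log2 fold change was 7.98, and without replicate 1 it was 5.81. The fit takes 1 spread per gene over both groups, here 13 tumors and 2 cultures. For every member in this comparison, the SE and p-value therefore rest mostly on the spread between tumors. Of the 14348 genes tested in this comparison, 16.1% were called higher in tumors and 5.99% lower.

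Ly6c1 and Ly6c2, which both encode the Ly6C antigen, were also higher in parental tumors. Ly6c1 stood at 1.23 and 8.03 TPM in culture and ran from 71.7 through a median of 104 to 251 TPM in the parental tumors. Its log2 fold change was 4.76 ± 0.46 (SE, adjusted p = 4.06e-07, limma). Leaving out 1 culture moved that value to 3.75 (without replicate 1) or 5.77 (without replicate 2). Ly6c2 was listed at 0 and 0.743 TPM in culture and ran from 54.0 through a median of 126 to 296 TPM in tumors. Its log2 fold change was 6.51 ± 0.46 (SE, adjusted p = 7.34e-09, limma). All 13 tumors were above both cultures for Ly6c1 and for Ly6c2.

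Ly6i, Ly6d and Ly6g were the low members. Ly6i was listed at 0 in both parental cultures and had a median of 6.50 TPM in the parental tumors, with a highest value of 11.1 TPM. One parental tumor, replicate 3, was also listed at 0, so the groups overlapped. The test called Ly6i higher in tumors (adjusted p = 0.00477, limma). No fold is given here, since against a group at 0 the pseudocount sets its size. The call was lost without either parental culture (adjusted p = 0.0833 and 0.0689, limma). Ly6d was listed at 0 in both cultures and in 4 of 13 tumors, reached at most 1.45 TPM, and did not pass the test (adjusted p = 0.219, limma). Ly6g, the neutrophil antigen, was above 0 in 2 of 13 parental tumors, at 0.265 and 0.470 TPM, and was too low to be tested. Ly6a, Ly6c2, Ly6d and Ly6i reached the filter, 1 TPM in 2 libraries, only through the tumors, so their passing it carries no weight of its own. With a pseudocount of 0.1 the log2 fold change of Ly6a was 7.57 and that of Ly6c2 8.68.

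Markers of neutrophils, B cells and skin epithelium, the cells that Ly6g and Ly6d are best known for, differed in level in tumors. Of the 10 neutrophil markers, 6 had a median under 1 TPM in tumors of either line. Csf3r, the G-CSF receptor, had a median of 6.82 TPM in the parental line and 3.38 TPM in the resistant line, and S100a8 5.83 and 1.69 TPM. Retnlg was listed at 0 in 12 of 13 parental and all 12 resistant tumors, and Camp in 11 and 12. The summed neutrophil list, 72.3 to 647 TPM for the parental line and 307 to 557 TPM for the resistant line, was mostly Mmp9, a matrix protease with a median of 138 TPM in cultured resistant cells too. Of the 9 skin epithelium markers, 8 had a median under 1 TPM in either line's tumors. Krt14, a basal keratin, reached at most 5.41 TPM. Of the 8 B cell and plasma cell markers, 4 had a median under 1 TPM in parental and 6 in resistant tumors. Cd79a, a part of the B cell receptor, had a median of 8.56 TPM in the parental line and 1.21 TPM in the resistant line. Pax5, a B cell transcription factor, had medians of 33.0 and 37.1 TPM in tumors, but also 18.2 and 28.9 TPM in parental and resistant culture.

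Markers of several host cell types, and interferon-induced genes, were higher in the same parental tumors. All 21 interferon-induced genes passed the test upwards against culture, with a median log2 fold change of 3.01 beside 0.21 for all genes tested. Their summed level was 542 and 1815 TPM in the parental cultures and 3898 to 7259 TPM in the parental tumors. Of the monocyte markers, 8 of 9 tested were higher, with summed levels of 3.20 and 9.22 TPM in culture and 134 to 605 TPM in tumors. Of the endothelial markers, 8 of 9 were higher, from 11.6 and 17.8 TPM to between 80.3 and 163 TPM. All 9 macrophage markers and all 5 pan-leukocyte markers were higher. Ccr2 and Ms4a4c, which mark monocytes, were listed at 0 in both parental cultures. Their part in the Ly6 levels of tumors was not tested.

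The resistant line gave the contrast that chose the genes. Ly6a was 3.54, 0, 1.07, 0.835 and 0.780 TPM in the 5 resistant cultures and ran from 194 through a median of 243 to 352 TPM in the 12 resistant tumors. Ly6c1 was 7.76 and 0.349 TPM in 2 resistant cultures and 0 in the other three, and 19.6 to 64.7 TPM in tumors. Ly6c2 was at most 0.344 TPM in culture and 53.9 to 236 TPM in tumors. Ly6i was 0.230 TPM in 1 culture, 0 in the other four, and 1.32 to 7.40 TPM in tumors. No resistant tumor overlapped a resistant culture in Ly6a, Ly6c1, Ly6c2 or Ly6i. The share of all genes without overlap was not computed, in this or any other comparison. By limma, a different measure, 35.3% of 12312 genes were called higher in resistant tumors than in resistant culture. Nothing is read from the lack of overlap, since the rule used this contrast. Ly6d was listed at 0 in all 5 cultures and 6 of 12 tumors, with at most 1.01 TPM, and Ly6g was above 0 in 1 resistant tumor, at 0.779 TPM.

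Side by side, with a pseudocount of 1, the tumor minus culture differences of the lines were close for the 3 abundant members. On the log2(TPM + 1) scale Ly6a differed by 7.02 in the resistant and 6.89 in the parental line. Ly6c2 differed by 6.61 and 6.51, and Ly6c1 by 4.57 and 4.76. For Ly6i, listed at 0 in both parental cultures, no such pair is given. The difference of these differences was not tested, because it holds the contrast that chose the genes. For Ly6c1 and Ly6a the closeness depends on the pseudocount, since the cultures lie near 0. With a pseudocount of 0.1, the resistant minus parental log2 difference of Ly6c1 was -1.67 in tumors and -3.35 in culture. That of Ly6a was -0.67 in tumors and -1.40 in culture. Leaving out 1 parental culture moved the parental tumor minus culture difference of Ly6a to 5.81 or 7.98.

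**Figure D2:**
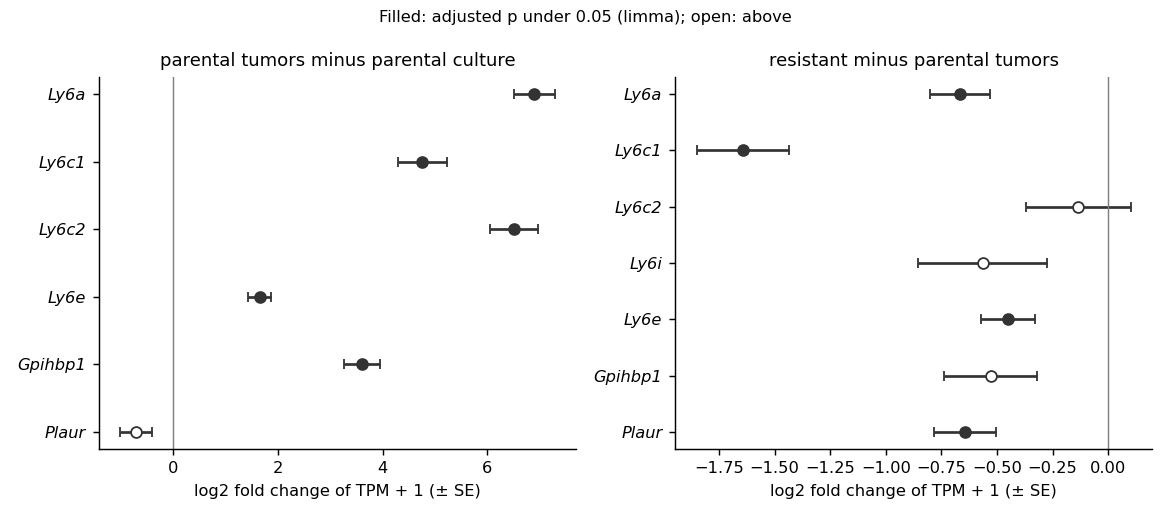
Log2 fold changes of TPM + 1 with SE for Ly6 genes and 3 relatives (Ly6e, Gpihbp1, Plaur), parental tumors against parental culture on the left and resistant against parental tumors on the right; filled points have an adjusted p under 0.05 in limma. Ly6a, Ly6c1 and Ly6c2 lie at 6.89, 4.76 and 6.51 on the left, and on the right Ly6c1 lies lowest at -1.64 while Ly6c2 lies at -0.13.

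Between tumors of the lines, the members parted. Ly6c1 and Ly6a were lower in resistant tumors, whereas Ly6c2 and Ly6i did not pass the test. Of the 12095 genes tested in this comparison, 13.9% were called lower and 16.3% higher in resistant tumors, and these tumors are also those of the contrast that chose the genes.

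Ly6c1 differed most among the members. In the parental line its lowest, median and highest tumor values were 71.7, 104 and 251 TPM. Those of the resistant line were 19.6, 36.9 and 64.7 TPM. All 12 resistant tumors lay below all 13 parental tumors. The log2 fold change was -1.64 ± 0.21 (SE, adjusted p = 1.31e-06, limma). A two-sided permutation test of 100000 resamples gave p = 1e-05, the smallest it can give.

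Ly6a was lower in resistant tumors by a smaller amount. Its mean was 261 ± 55.3 TPM (SD, n = 12) against 421 ± 113 TPM (SD, n = 13) in parental tumors, and the log2 fold change was -0.67 ± 0.13 (SE, adjusted p = 0.000486, limma; permutation test, two-sided, p = 0.00019). All 12 resistant tumors were below the parental mean and 4 of them below every parental tumor. The groups therefore overlapped.

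Ly6c2 had a median of 99.0 TPM in the resistant line's tumors and 126 TPM in the parental line's, with ranges that lay almost on top of each other. Its log2 fold change was -0.13 ± 0.24 (SE, adjusted p = 0.699, limma), and 9 of 12 resistant tumors were below the parental mean. With Ptprc as a covariate the sign turned, to 0.21 (adjusted p = 0.373, limma). With the GC index, the level of GC-rich relative to GC-poor genes, as a covariate it was -0.51 (adjusted p = 0.0720, limma), and without the 4 parental tumors with an index above 0.5 it was -0.39 (adjusted p = 0.227, limma). Over the 10 limma settings other than Ptprc the adjusted p was between 0.0720 and 0.754, and over left-out libraries between 0.461 and 0.943. Ly6i had a mean of 3.43 ± 1.52 TPM (SD, n = 12) in resistant and 6.19 ± 2.96 TPM (SD, n = 13) in parental tumors, and 11 of 12 resistant tumors were below the parental mean. Its log2 fold change was -0.56 ± 0.29 (SE, adjusted p = 0.140, limma). Without parental tumor replicate 3, the library listed at 0 for Ly6i, the value was -0.78 (adjusted p = 0.00526, limma). That library is 1 of 4 parental tumors with a GC index above 0.5, and without those 4 the value was -0.91 (adjusted p = 0.000666, limma). Across all other settings the adjusted p of Ly6i lay between 0.0119 and 0.494. Ly6d and Ly6g were too low to be tested between tumors.

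Ly6c1 and Ly6c2 are neighbors with similar sequences, and their relative level differed between the lines. In parental tumors Ly6c1 was above Ly6c2 in 7 of 13, with a median ratio of 1.12 (range 0.427 to 2.34). In resistant tumors Ly6c1 was below Ly6c2 in all 12, with a median ratio of 0.343 (range 0.193 to 0.592). The mean log2 ratio, here of TPM + 1, differed by -1.51 between the lines (two-sided permutation test, p = 2e-05, adjusted p = 6e-05 over the 6 ratios of the 4 members tested). All 12 resistant tumors were below the parental mean ratio, though the ranges of the lines overlapped. The ratio test was added after the values had been seen.

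**Figure D3:**
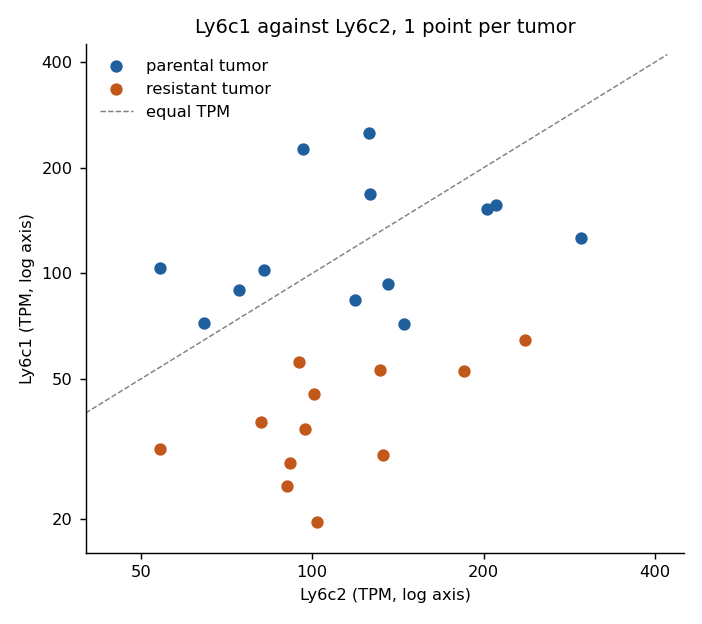
Ly6c1 against Ly6c2 in TPM on log axes, 1 point per tumor (13 parental, 12 resistant), with a dashed line at equal TPM. The resistant tumors all lie below the line, at Ly6c1 levels of 19.6 to 64.7 TPM, while 7 parental tumors lie above it.

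The other ratios placed Ly6a between these genes. These too were taken on TPM + 1. The log2 ratio of Ly6a to Ly6c1 was higher by 0.98 in resistant tumors (permutation test, p = 1e-05, adjusted p = 6e-05), with 12 of 12 above the parental mean. That of Ly6a to Ly6c2 was lower by 0.53 (permutation test, p = 0.0116, adjusted p = 0.0174), with 11 of 12 below the parental mean. Ly6c1 to Ly6i was lower by 1.08 (permutation test, p = 0.00466, adjusted p = 0.00932), again in 11 of 12. The ratios of Ly6a to Ly6i (-0.10, permutation test, adjusted p = 0.752) and of Ly6c2 to Ly6i (0.43, permutation test, adjusted p = 0.246) did not pass. Parental tumor replicate 3 was listed at 0 for Ly6i, so its ratios to Ly6i exist only through the pseudocount. The ratios to Ly6i were not computed without that library. As shares of the summed members, Ly6c1 had a median of 18.7% in parental and 9.65% in resistant tumors, and Ly6c2 17.4% and 26.2%.

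How reads of near-identical stretches were assigned is not given in the sources used here. In GENCODE mouse transcripts (release M21), 21.5% of the 50-base stretches of Ly6c1 also occur in Ly6c2 and 11.1% occur in Ly6a. For stretches of 100 bases these shares were 9.05% and 1.08%. Of the 50-base stretches of Ly6c2, 13.9% occur in Ly6c1 and 0.110% in Ly6a, and of those of Ly6a, 15.0% occur in Ly6c1 and 2.39% in Ly6i. Ly6d shared none with any other gene. The split of reads between Ly6a, Ly6c1 and Ly6c2 is therefore uncertain for those stretches, and its part in the ratios was not tested.

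The upstream sequences of Ly6c1 and Ly6c2 are shown because these neighbors differ in their line difference, and that of Ly6g because it lies in the same cluster and was near 0. Each is the 150 bases before the outermost annotated start, from the RefSeq promoter table (GRCm38.p6), written 5′ to 3′ on the gene's strand. Entries were matched for Ly6c1, Ly6c2 and Ly6g, which is 3 of the 6 members. Capitals mark matches to the TATA box (TATAAA) and the CCAAT box. They also mark AGGAAGT, a core that ETS factors such as PU.1 bind. These windows lie at chr15:75048921-75049070 (minus strand, Ly6c1), chr15:75112067-75112216 (minus strand, Ly6c2) and chr15:75155090-75155239 (plus strand, Ly6g).
Ly6c1: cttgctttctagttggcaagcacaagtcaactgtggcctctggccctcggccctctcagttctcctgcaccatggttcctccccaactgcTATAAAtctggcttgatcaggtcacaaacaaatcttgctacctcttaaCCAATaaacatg
Ly6c2: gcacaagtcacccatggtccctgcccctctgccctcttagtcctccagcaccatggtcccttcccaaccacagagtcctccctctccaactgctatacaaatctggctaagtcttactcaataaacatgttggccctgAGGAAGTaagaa
Ly6g: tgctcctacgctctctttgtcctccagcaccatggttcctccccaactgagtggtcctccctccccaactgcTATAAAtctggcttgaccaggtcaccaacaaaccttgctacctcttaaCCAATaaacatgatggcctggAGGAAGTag

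The 3 windows are visibly related. Over the aligned part, Ly6c1 and Ly6c2 share 71.8% of positions, Ly6c1 and Ly6g 74.2%, and Ly6c2 and Ly6g 68.0%. TATAAA stands in the windows of Ly6c1 and Ly6g and in 8.06% of the 19685 windows of the same length in the table. CCAAT stands in the same pair and in 26.1% of windows. AGGAAGT stands in the windows of Ly6c2 and Ly6g and in 5.36% of all. The interferon-gamma-activated site TTCNNNGAA, in 4.47% of all windows, and the interferon-response core GAAANNGAA, in 4.19%, had no match in these 3 windows. Both strands were searched, no matches in the 3 windows overlapped, and a match is a run of letters, not a shown binding site.

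Between the lines in culture, no member passed the test. Of 11201 genes tested there, 6.15% were called higher and 8.04% lower in resistant cells, and among the members only Ly6a and Ly6c1 could be tested. Ly6a gave a log2 fold change of -0.79 ± 0.65 (SE, adjusted p = 0.457, limma), which became 0.29 without parental culture replicate 2. Ly6c1 gave -1.45 ± 0.88 (SE, adjusted p = 0.306, limma), which became -2.06 (adjusted p = 0.0248, limma) without resistant culture replicate 1. Without any other 1 library its adjusted p was between 0.285 and 0.869.

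Those cultures differed from the others of their line in some other genes. Parental culture replicate 2 had an interferon-induced score, the mean log2(TPM + 1) of the 21 genes, of 4.78 against 2.83 in replicate 1. It also had 3.81 TPM of Cdh5, VE-cadherin, and 7.98 TPM of Plac8. Resistant culture replicate 1 had an interferon-induced score of 3.99, within the 3.45 to 4.04 of its group, with 7.18 TPM of Cdh5 and 1401 TPM of Ly6e, where its group's other libraries had at most 1.87 TPM of Cdh5 and 409 to 527 TPM of Ly6e. Its 7.40 TPM of Plac8 was close to the 6.84 TPM of replicate 3, in which Ly6c1 was listed at 0. Both libraries had under 0.15 TPM of Ptprc. The part of these genes in the Ly6 levels of culture was not tested.

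Marker levels between tumors of the lines did not run with the members in a single way. Of 9 endothelial markers none passed the test, and their summed level was 80.3 to 163 TPM in the parental line and 65.3 to 161 TPM in the resistant line. Of 9 monocyte markers tested, 1 passed, Chil3 upwards (log2 fold change 0.84, adjusted p = 0.0428, limma), with summed levels of 134 to 605 and 213 to 459 TPM. Macrophage markers were lower in resistant tumors for 7 of 9, among them Adgre1 (-1.19, adjusted p = 1.64e-05, limma) and C1qa (-1.14, adjusted p = 1.04e-05, limma), and higher for Mertk. Their sum was 297 to 1212 TPM in the parental line and 313 to 578 TPM in the resistant line. Pan-leukocyte markers were lower for 3 of 5, and Ptprc itself differed by -0.35 (adjusted p = 0.125, limma). One of the lower markers, Laptm5, was also present in culture, with a median of 73.9 TPM in resistant and 3.44 TPM in parental cells. With Ptprc as a covariate the log2 fold change of Ly6c1 was -1.48 (adjusted p = 5.33e-06, limma) and that of Ly6a -0.52 (adjusted p = 0.00173, limma), and over all other limma settings their adjusted p reached at most 5.44e-05 and 0.00950. No T cell marker of 5 tested passed. B cell and plasma cell markers were lower for 3 of 4, with sums of 36.0 to 61.9 TPM and 24.8 to 53.6 TPM. The part of these cells in the line difference of the Ly6 genes was not tested beyond the fit with Ptprc.

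As a list, interferon-induced genes went the other way from Ly6a, but not each of them did. In resistant tumors 11 of 21 were higher, 10 did not pass and none was called lower. Of all genes tested, 16.3% were called higher and 13.9% lower. The median log2 fold change of the list was 0.39 beside 0.04 for all genes tested. Cxcl10 (-0.37), Irf1 (-0.11) and Gbp2 (-0.05) had negative values that did not pass (adjusted p = 0.0867, 0.574 and 0.770, limma). Ly6e, which interferon also induces and which is not in the list, was lower (-0.45, adjusted p = 0.00593, limma). Cxcl9, a chemokine induced by interferon-gamma, was higher by 1.13 (adjusted p = 0.00481, limma). The summed list had a median of 5901 TPM in the parental line and 6755 TPM in the resistant line.

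Across tumors of 1 line, 24 relations among the members, the interferon-induced genes and the host cell lists were computed on log2(TPM + 1), and pairs with Ly6d or Ly6g were left out as too low. One passed the adjustment over the 24. Ly6c2 followed the interferon-induced score over the 13 parental tumors (Pearson r = 0.79, permutation p = 0.00109, adjusted p = 0.0262; Spearman rho = 0.88, permutation p = 0.00019, adjusted p = 0.00456). Without the 2 tumors farthest from the median score, r was 0.63. In the 12 resistant tumors r was 0.77 (permutation p = 0.00487, adjusted p = 0.0584; rho = 0.65, permutation p = 0.0259, adjusted p = 0.183). It was 0.34 without the 2 farthest tumors, so there it rests on those tumors.

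Ly6a had a like but less firm relation to the score. Its r was 0.68 in parental tumors (permutation p = 0.0107, adjusted p = 0.0628; rho = 0.57, permutation p = 0.0444, adjusted p = 0.213) and 0.61 in resistant tumors (permutation p = 0.0365, adjusted p = 0.0972; rho = 0.44, permutation p = 0.155, adjusted p = 0.354). Without the 2 farthest tumors these were 0.43 and 0.52. With the endothelial score, Ly6a had an r of -0.03 in parental and 0.07 in resistant tumors (permutation tests, adjusted p = 0.920 and 0.866). Ly6c1 with the endothelial score had -0.15 and -0.23 (permutation tests, adjusted p = 0.714 and 0.562). These values depended on the GC index in resistant tumors. With the index taken out of both measures, r with the endothelial score there was 0.43 for Ly6a and 0.42 for Ly6c1. In parental tumors it was then 0.10 and -0.10. With the monocyte score, Ly6c2 had an r of 0.59 in parental and 0.40 in resistant tumors (permutation tests, adjusted p = 0.0968 and 0.322). Without the 2 farthest tumors these were 0.15 and 0.37. Ly6i with the monocyte score had 0.13 and -0.24 (permutation tests, adjusted p = 0.721 and 0.562).

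**Figure D4:**
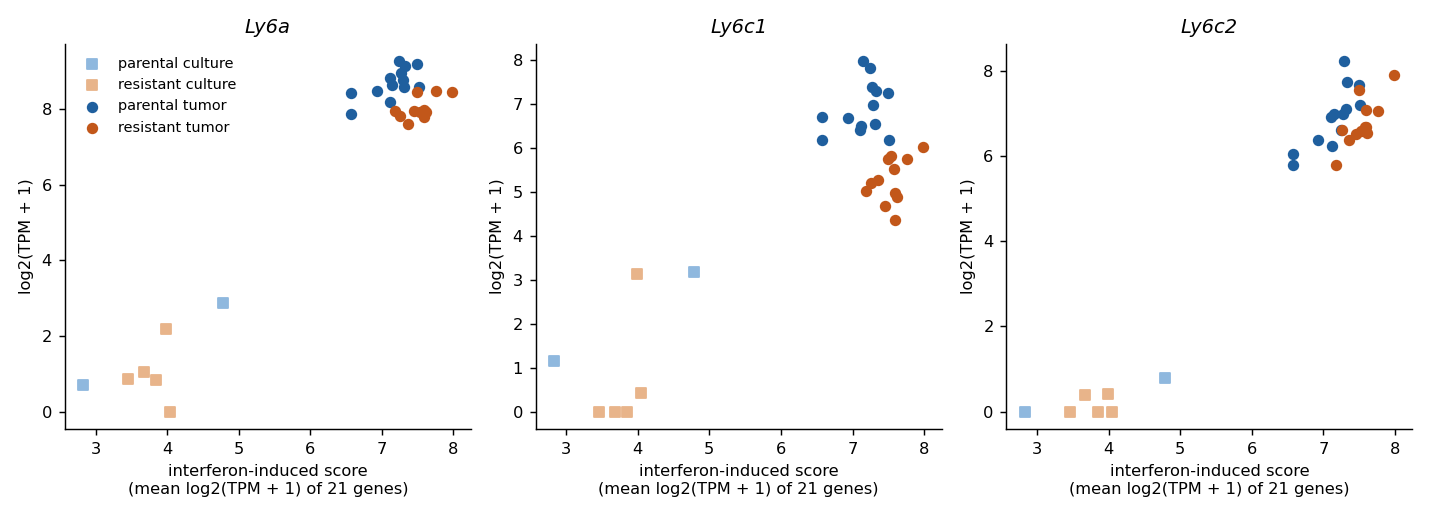
Ly6a, Ly6c1 and Ly6c2 as log2(TPM + 1) against the interferon-induced score (mean log2(TPM + 1) of 21 genes), with 1 point per library, squares for cultures and circles for tumors. Tumors have scores of 6.57 to 7.99 and cultures 2.83 to 4.78. Within the parental tumors r is 0.79 for Ly6c2 and 0.68 for Ly6a. Resistant tumors sit lower in Ly6c1, at scores of 7.18 to 7.99 beside 6.57 to 7.52 in parental tumors. The relation of Ly6c1 to the score was not tested.

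Among the members, r of Ly6a was positive with Ly6c1 (0.66 in parental and 0.54 in resistant tumors) and with Ly6c2 (0.63 and 0.71). Permutation tests gave adjusted p of 0.0628, 0.151, 0.0805 and 0.0628 in that order. By rank, rho with Ly6c1 was 0.63 and 0.21, and with Ly6c2 0.61 and 0.43. Without the 2 tumors farthest from the median of the second gene, r of Ly6a with Ly6c1 was 0.77 and 0.51. That with Ly6c2 was then 0.73 in parental and 0.33 in resistant tumors. Ly6c1 and Ly6c2 had an r of 0.31 and 0.55 (permutation tests, adjusted p = 0.459 and 0.141). None of these passed the adjustment. Technical and cell-content measures moved with the same genes. The GC index was above 0.5 in 4 parental tumors and in no resistant tumor. It ran against Ly6c2 in parental tumors (r = -0.70, rho = -0.83, permutation test on r, adjusted p = 0.0285 over 16 such relations) and against Ly6c1 in resistant tumors (r = -0.69, rho = -0.64, permutation test on r, adjusted p = 0.0371). Ptprc ran with Ly6c2 in both lines (r = 0.72 and 0.67, permutation tests, adjusted p = 0.0285 and 0.0421). Ptprc also ran with Ly6a (r = 0.76, rho = 0.44) and Ly6c1 (r = 0.72, rho = 0.73) in resistant tumors and with Ly6i in parental tumors (r = 0.78, rho = 0.35). Each had an adjusted p of 0.0285 from the permutation test on r. The permutation test on rho, not adjusted, gave p = 0.154 for Ly6a, 0.00881 for Ly6c1 and 0.245 for Ly6i. By rank, the relations of Ly6a and Ly6i with Ptprc were therefore not shown. With the GC index taken out of both measures, r of Ly6c2 with the interferon-induced score was 0.58 in parental tumors, and without the 4 tumors above 0.5 it was 0.64.

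The genes whose pattern over tumors was most like that of Ly6a were found by the mean of the within-line Pearson r over the 13 parental and 12 resistant tumors, among 9458 genes. They were Setdb2 (0.79), Gbp4 (0.79), Trappc10 (0.77), Slfn4 (0.75) and Plac8 (0.74). Ly6c2 ranked 17 and Ly6c1 43 in that order, and Ly6e 596. For Ly6c2 the closest were Gbp4 (0.85), Ms4a4c (0.83), Slfn4 (0.83), Hist2h2bb (0.80) and Ifi213 (0.78), with Ly6a at rank 80 and Ly6c1 at 1455. These are descriptions over tumors that differ in GC index and in Ptprc level, and the part of either in the ranking was not tested.

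Of the other Ly6/uPAR family genes, 38 were looked for and 32 were in the table, most of them at or near 0. In parental tumors against culture 12 could be tested, of which 2 were higher and 1 lower, beside 16.1% and 5.99% of all genes tested, with a median log2 fold change of 0.30 beside 0.21 for all genes. Ly6e, a broadly expressed relative that interferon induces, was the most abundant family gene, at 589 and 806 TPM in parental culture and 1558 to 2827 TPM in parental tumors. Its log2 fold change was 1.65 ± 0.21 (SE, adjusted p = 1.19e-05, limma). Gpihbp1, the capillary endothelial anchor of lipoprotein lipase, had a mean of 0.162 TPM in culture and 13.8 TPM in tumors (3.61 ± 0.34, SE, adjusted p = 2.97e-07, limma). It too reached the filter only through the tumors, and with a pseudocount of 0.1 the value was 5.99. Lynx1, a modulator of nicotinic receptors, was lower, at 2.23 against 6.75 TPM (-1.26 ± 0.27, SE, adjusted p = 0.00211, limma), and its adjusted p was 0.117 without parental culture replicate 2.

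Between tumors of the lines 6 could be tested and 2 were lower in resistant tumors, beside 13.9% of all genes tested, with a median log2 fold change of -0.25 beside 0.04 for all genes. Plaur, the urokinase receptor, had a mean of 98.0 TPM against 159 TPM (-0.64 ± 0.14, SE, adjusted p = 0.000908, limma), and all 12 resistant tumors lay under the parental mean. Ly6e had 1626 against 2198 TPM (-0.45 ± 0.12, SE, adjusted p = 0.00593, limma), with 11 of 12 below, and an adjusted p of 0.0610 after quantile normalization. Gpihbp1 had 9.56 against 13.8 TPM (-0.53 ± 0.21, SE, adjusted p = 0.0575, limma). Its adjusted p was between 0.0365 and 0.0401 with quantile normalization, median-of-ratios scaling, 1 fit over all groups or Ptprc as a covariate, and after adding the GC index to the fit the value was -0.34 (adjusted p = 0.250, limma).

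In culture 4 could be tested and 2 were lower in resistant cells, beside 8.04% of all genes tested. Plaur had 144 against 249 TPM (-0.79 ± 0.12, SE, adjusted p = 0.00341, limma), with all 5 resistant libraries below both parental ones. Lynx1 had 0.629 against 6.75 TPM (-2.27 ± 0.35, SE, adjusted p = 0.00366, limma), also with no overlap, and an adjusted p of 0.0546 without parental culture replicate 2. Ly6e did not pass (-0.25 ± 0.42, SE, adjusted p = 0.739, limma), and without resistant culture replicate 1 it gave -0.56 (adjusted p = 0.0451, limma).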

How the data were processed

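Poly(A) RNA libraries were made with KAPA kits after Qiagen extraction, per the labels' protocols. The authors deposited 1 table of TPM by mouse gene symbol for 32 libraries. Per the submitters' processing notes, STAR and GRCh38 (a human build) belong to the processing, with no role or version given. The quantifier and its annotation were not given in the sources used here, read totals are unknown, and precision rests on the spread between libraries. Groups came from the labels, which pair no samples. All tumor libraries carry names of 1 series and all culture libraries names of another. Within the tumor series, each line holds its own run of numbers. Any handling difference that goes with the names cannot be told apart from growth as a tumor, or from the line. The members and gene lists were chosen with earlier results of these data known.

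The libraries of 1 comparison entered 1 fit of limma 3.58.1 (R 4.3.3) on log2(TPM + 1) with an intensity trend. Tests were two-sided, p-values were adjusted by Benjamini-Hochberg over the genes that passed the filter, and the threshold was 0.05. The filter asked for 1 TPM or more in a number of libraries equal to the smaller group. Fold changes on this scale understate those of low genes. Named were all members, family genes called or reaching 5 TPM, and the 5 genes most like Ly6a and Ly6c2. Other calculations used Python 3.11.15 with scipy 1.17.1 and Biopython 1.88. For the GC index, genes were centered on their tumor mean, and the median log2 level of those under a GC fraction of 0.42 was taken from the median of those over 0.55. Fits were also run on simulated data, in which both groups had the same spread and only genes of higher mean level were changed. Changes in genes near 0 in culture, as the members are, were therefore not covered.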

Additional observations from a re-analysis of the deposited data

Results flagged for a closer look

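Among the 6 members and Ly6e, Plaur, Lynx1 and Gpihbp1, 3 genes had 1 library far from the others in the 5 resistant cultures, and in each case it was replicate 1. It had 7.76 TPM of Ly6c1 where the others had 0 to 0.349 TPM, 0.230 TPM of Ly6i where the others were listed at 0, and 1401 TPM of Ly6e where the others had 409 to 527 TPM. Chance alone flags about 1 in 20 groups under Dixon's criterion. That rate does not hold for Ly6i, since any value above 0 is flagged when the other libraries are at 0. The same library was the highest of its group in Ly6a, at 3.54 TPM, which did not meet the criterion. It was also the highest in Cdh5, whose part in these values was not tested.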

How the results depend on the processing

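No called difference of a member changed direction under any of the alternatives run, and for Ly6a, Ly6c1 and Ly6c2 in both tumor comparisons every setting and every left-out library kept the side of the threshold. Ly6i was the exception. Between tumors of the lines it passed with array weights (log2 difference -0.71), with a covariate for the GC index (-0.85), and without the 4 parental tumors of high GC index (-0.91), and over single libraries left out it ran from -0.78 to -0.49. In parental tumors against culture, the fitted Ly6i difference, whose size the pseudocount sets because both cultures are at 0, ran from 2.56 to 2.86 over left-out libraries and lost its call without either culture. Ly6c1 in culture ran from -2.46 to -0.44. Quantile normalization shifted the median of all genes by -0.15 (log2) in parental tumors against culture.

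Counts over all genes moved more. Genes called higher in resistant tumors rose to 3052 with Ptprc as a covariate. Genes called lower in parental tumors than in culture, 859, came to 1492 with quantile normalization, 1368 with 1 fit over all groups, 1520 with array weights and 1419 without the tumors of high GC index. Over left-out libraries, genes higher and lower in that comparison ran from 1040 to 2563 and from 250 to 1039, and in culture, from 231 to 924 and from 276 to 1192. The cause was not tested, apart from a lone parental culture, which is then assumed to vary like the tumors or the resistant cultures. No paired analysis was possible because the labels pair no samples. Unknown depth and 2 parental cultures limit what can be said of culture, where the members lie near 0.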
